A study of Glycine max with 12 samples.

Results

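The response of soybean (Glycine max) roots to aluminium was compared between an Al-sensitive variety, Guangfengmaliaodu (GF), and an Al-tolerant variety (KF), separately at each time. Seedlings germinated in sand for 3 days stood in 0.5 mM CaCl2 at pH 4.3, without aluminium (control) or with AlCl3 at 25 µM (Al), and total root RNA was hybridised to Affymetrix arrays after 6, 12 and 24 h. The 12 arrays cover every combination of variety, treatment and time with 1 array each, all 12 enter the comparison, and no condition was replicated. At each time the Al minus control difference of GF was subtracted from that of KF, on the log2 intensity scale, so that a positive value means that KF stood higher after Al relative to its own control than GF did. Of 49646 tested probe sets, 285 (0.574%) differed by at least 2-fold in the same direction at 6, 12 and 24 h. In 139 of them (0.28%) the KF response lay above the GF response and in 146 (0.294%) below it. After cyclic loess normalization of the same arrays the corresponding counts were 177 above and 109 below, so the balance between the directions depends on the scaling. The size and sign of the differences chose these probe sets, and their values are given as a description.

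Aluminium ions become soluble in acid soil and stop root elongation by binding to the cell wall, the plasma membrane and other targets in the root tip. Tolerant plants are known to release citrate or malate through transporters of the MATE and ALMT families, many of whose genes are under the zinc finger factor STOP1, and to change the pectin, xyloglucan and phenolic cross-links of the wall. Class III peroxidases, secreted enzymes that make and break bonds between wall phenolics, are the enzymes that the series is named after, and the design asks which genes may matter for tolerance.

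Each p-value comes from limma, fitted over all 12 arrays with 3 time-specific Al effects and 1 term for the extra response of KF, and adjusted by the Benjamini-Hochberg method over all tested probe sets. It measures a difference in response against its variation between the 3 times, since nothing else was repeated. limma draws that variation towards a value shared with other probe sets of like level. The shared value carries 5.13 prior degrees of freedom, against 2 residual ones of the probe set itself. The standard error (SE) of limma follows the sign ±, with n = 3 times. The difference passed at an adjusted p below 0.05 in 8 probe sets (0.0161%), 6 with the higher response in KF (0.0121%) and 2 with the higher response in GF (0.00403%), and 4449 (8.96%) had an unadjusted p below 0.05. All 8 were among the 285. The largest adjusted p inside the threshold was 0.042 and the smallest outside it 0.091.

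Background probe sets, which match no genome, had median levels from 1.59 to 2.22 on the log2 scale, highest on the GF 24 h control array. Their 95th percentile lay between 4.87 and 6.19, and between 2477 and 8182 of the main probe sets exceeded it. The median difference in response of the 23 background probe sets was -0.02 at 6 h, 0.16 at 12 h and 0.47 at 24 h, against 0.01, -0.01 and -0.02 for all main probe sets. Mean levels of marker lists were 2.19 to 2.54 for photosynthesis, 1.80 to 2.16 for seed storage, 2.73 to 3.88 for nodule, 2.66 to 3.39 for endodermis, 2.89 to 3.57 for root hair, 1.48 to 1.87 for root meristem and 2.02 to 2.83 for xylem genes over the 12 arrays. The brightest endodermis and xylem probe sets reached 8.28 and 9.53, whereas no root meristem probe set exceeded 3.29. In whole roots, fewer cells of a type and less RNA per cell cannot be told apart.

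Of the 6 probe sets with the higher response in KF that passed the test, 4 carry a gene name. LOC100809397 (GLYMA15G41850, chromosome 15, 49063505 to 49067864) encodes a GDSL esterase/lipase 5-like protein of a family of secreted lipid hydrolases. In KF its level was 0.70, 0.90 and 0.70 in control roots and 5.38, 5.84 and 5.25 after Al at 6, 12 and 24 h. In GF it was 0.86, 0.75 and 0.96 in control roots and 0.90, 0.83 and 1.05 after Al. The 3 KF Al arrays stood apart from the other 9, which all lay at the bottom of the scale. The response differed by 4.66 ± 0.21 (adjusted p = 0.00368), a size that rests on values under the 95th percentile of the background in those 9 arrays.

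GSTU24 (GLYMA07G16830, chromosome 7, 16494026 to 16495340) encodes a glutathione S-transferase of the tau class, enzymes that join glutathione to reactive or foreign compounds. Its level in KF was 1.21, 0.99 and 1.08 in control roots and 5.60, 5.32 and 6.56 after Al. In GF the control levels were 0.87, 1.30 and 1.02 and the Al levels 1.43, 1.17 and 1.22. Again only the 3 KF Al arrays were above the background range, and the response differed by 4.52 ± 0.31 (adjusted p = 0.0179). LOC100782055 (GLYMA11G15360, chromosome 11, 10972173 to 10974191) is annotated as glutelin type-A 1-like, a cupin protein named after a seed storage protein. It read 2.32, 2.98 and 3.13 in KF control roots and 6.56, 7.64 and 8.73 after Al, while the 6 GF arrays stayed between 2.04 and 2.37. The response differed by 4.77 ± 0.32 (adjusted p = 0.0179). According to the array annotation the probes of GSTU24 and LOC100782055 match more than 1 gene, so related genes could share their signal. The 43 probe sets of the seed storage list had a median difference of 0.06, and this was their only member 2-fold apart at every time.

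LOC100778424 (GLYMA17G15680, chromosome 17, 12409098 to 12410966), an expansin-like B1-like gene of the expansin superfamily of wall proteins, differed in another way. Its control levels were 6.95, 7.92 and 7.42 in GF and 3.41, 4.31 and 4.17 in KF, and its Al levels were 7.30, 7.99 and 9.12 in GF and 8.52, 8.49 and 9.24 in KF. The varieties stood far apart in control roots and close together after Al. The response differed by 4.08 ± 0.34 (adjusted p = 0.042). Among all 57 expansin probe sets it was the only one 2-fold apart at every time, and the median difference of the list was -0.03.

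The 2 probe sets without a gene name lie on chromosome 5 (8921913 to 8925444) and chromosome 6 (44399765 to 44401478). The chromosome 5 transcript read 5.18, 6.04 and 8.26 in KF after Al, against 1.99, 2.28 and 3.69 in GF after Al and at most 1.92 in any control array. The chromosome 6 transcript read 3.41, 4.24 and 4.94 in KF after Al, under the 95th percentile of the background on those arrays, and at most 1.99 elsewhere. Their differences in response were 4.24 ± 0.36 and 2.74 ± 0.23 (adjusted p = 0.042 for both).

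One of the 2 probe sets called with the higher response in GF belonged to SYP24, a putative syntaxin-24-like gene (GLYMA19G38570, chromosome 19, 45459111 to 45459981) with, in the deposited domain column, a late embryogenesis abundant domain. Its GF level was 2.15, 2.37 and 2.41 in control roots and 7.15, 7.43 and 8.51 after Al. Its KF level was 1.34, 1.39 and 1.48 in control roots and 1.29, 1.61 and 2.02 after Al. The gene was bright only on the 3 GF Al arrays, and the KF response was lower by 5.15 on the log2 scale (mean difference -5.15 ± 0.28, adjusted p = 0.0063), with the other 9 arrays under the 95th percentile of the background. A related gene with the same domain, LOC100793725 (GLYMA03G35930, chromosome 3), went from 1.57, 2.04 and 2.08 to 8.61, 8.45 and 9.80 in GF and from 2.21, 1.84 and 1.39 to 8.72, 8.89 and 9.61 in KF. It was bright after Al in both varieties, with a difference in response of 0.21 ± 0.33 (adjusted p = 0.878).

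LOC100779876 (chromosome 3, 8860628 to 8861672), which is uncharacterized, was the other gene called with the higher response in GF. It read 2.48, 2.62 and 2.44 in GF control roots and 5.26, 6.34 and 7.21 after Al, whereas the 6 KF arrays lay between 0.74 and 1.23. The difference was -3.71 ± 0.29 (adjusted p = 0.0343). For SYP24 and LOC100779876 all KF arrays lay between 0.74 and 2.02; whether their probes match the KF sequence was not tested.

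**Figure D1:**
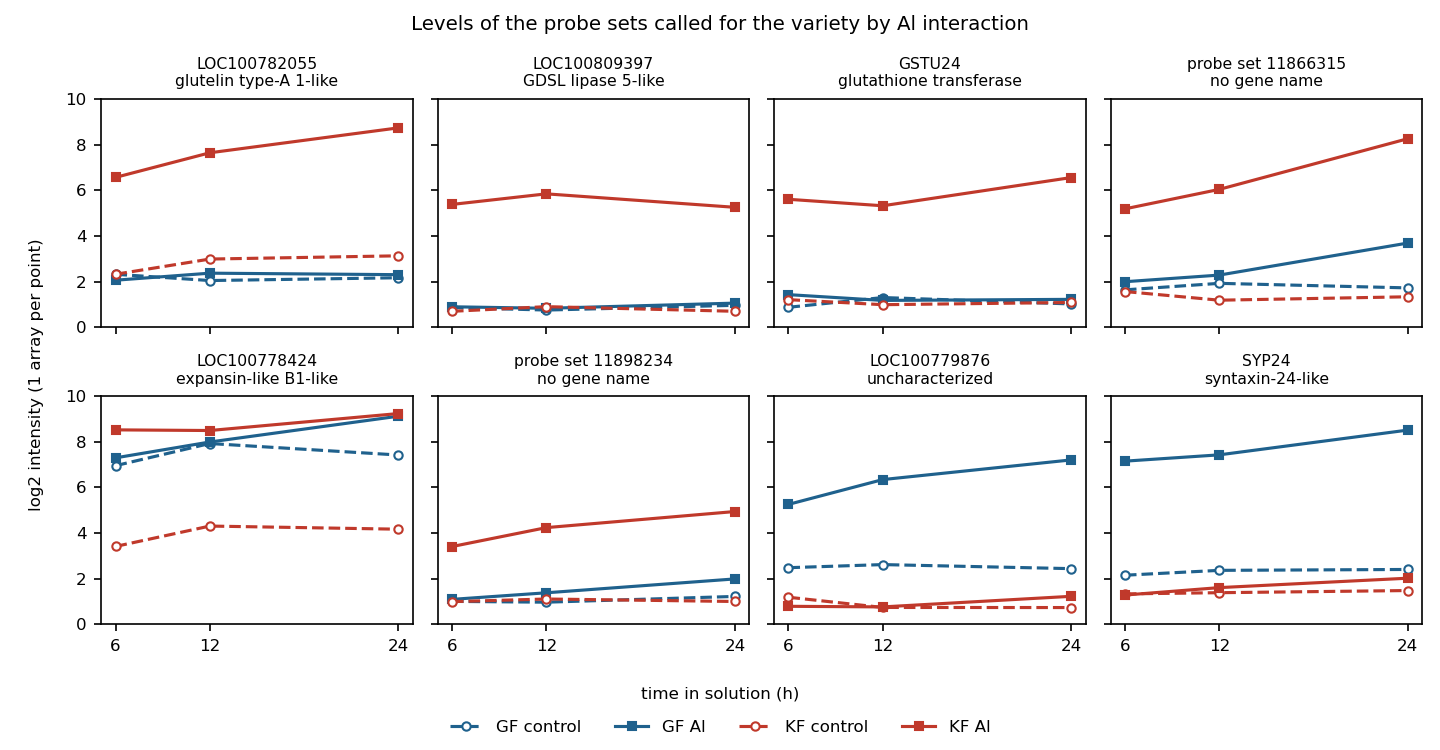
Levels of the 8 probe sets that passed the test, as log2 intensity (vertical axis) at 6, 12 and 24 h (horizontal axis), 1 array per point. Solid lines with filled squares are Al roots and dashed lines with open circles control roots, in red for KF and blue for GF. KF Al is the highest line and every other line stays under 4 in 5 panels, GF Al stands alone in those of SYP24 and LOC100779876, and KF control lies far under the other lines in that of LOC100778424.

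A floor shows how far these differences rest on dim values. When every value under 5.24 (the 95th percentile of background probe sets over all arrays, an alternative chosen after seeing the data) was raised to it, the mean difference was 2.81 for LOC100778424, 2.41 for LOC100782055 and -2.46 for SYP24, but 0.25 for LOC100809397 and 0.59 for GSTU24, and none passed.

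In the 139 probe sets with the higher response in KF, KF usually stood further above its control than GF did, as the rule required. The median Al minus control difference was 2.07, 2.78 and 4.51 in KF at 6, 12 and 24 h, and 0.40, 0.88 and 2.47 in GF. In KF 124, 127 and 131 of them were at least 2-fold above control at the 3 times, and in GF 26, 60 and 103. These counts at single times were not made over all tested probe sets. KF was up at all 3 times in 121 (2.51% of all tested probe sets were), of which GF was also up at all 3 times in 24, under 2-fold at all 3 in 22 and mixed in 75. Among all tested probe sets GF was up at all 3 times in 1.79% and under 2-fold in 81.1%. In the control roots 109 of the 139 were under 2-fold apart between the varieties at every time, a lower share than the 92.1% of all tested probe sets. Control values entered the choice of the 139 and the 146, so their shares in control roots are description only. All 6 control arrays lay under 2 log2 units in 62 of 139 (44.6%) and in 7 of the 146 in the other direction (4.79%), against 34.1% of all tested probe sets. The background probe sets themselves shifted by 0.47 in the same direction at 24 h, whose part in these values was not tested.

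Among the 146 probe sets with the lower response in KF, KF after Al was typically under its control while GF stayed near its own. The median Al minus control difference was -1.35, -1.19 and -2.11 in KF and 0.20, 0.36 and -0.23 in GF. KF was down at all 3 times in 67 (1.08% of all tested probe sets were), of which GF was under 2-fold at all 3 times in 26, also down at all 3 (0.357% of all tested probe sets) in 4 and mixed in 37. GF was up at all 3 times while KF stayed under 2-fold (71% of all tested probe sets did) in 12. The varieties moved in opposite directions at every time in 18 of the 146 and in 5 of the 139. Opposite directions were not counted over all tested probe sets. All 6 control arrays exceeded 4 log2 units in 71 of these 146 (48.6%) and in 3 of the 139 (2.16%), against 19% of all tested probe sets. A fall shows only from a level above the background, so the choice by direction bears on these shares.

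**Figure D2:**
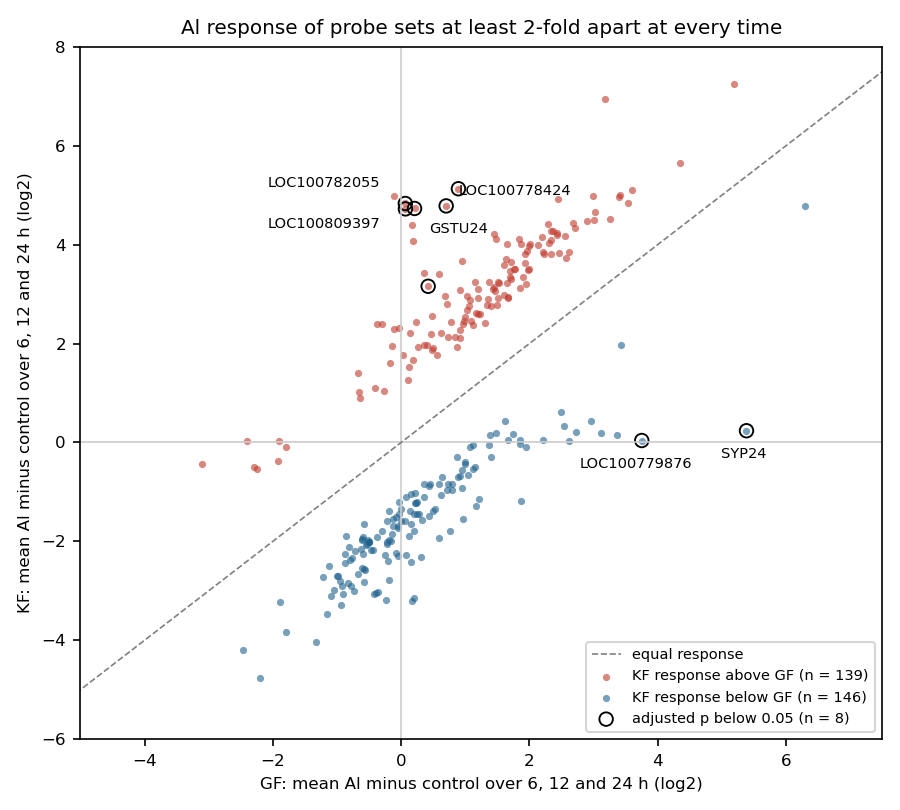
Mean Al minus control difference over 6, 12 and 24 h (log2) of the 285 probe sets that differ by at least 2-fold at every time, GF on the horizontal axis and KF on the vertical axis. Red points have the higher response in KF (139) and blue points the lower (146), black circles mark the 8 that passed the test, and the dashed line is an equal response. Red points lie mostly where both varieties are above 0, and blue points mostly where KF is below 0 and GF near 0.

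**Figure D3:**
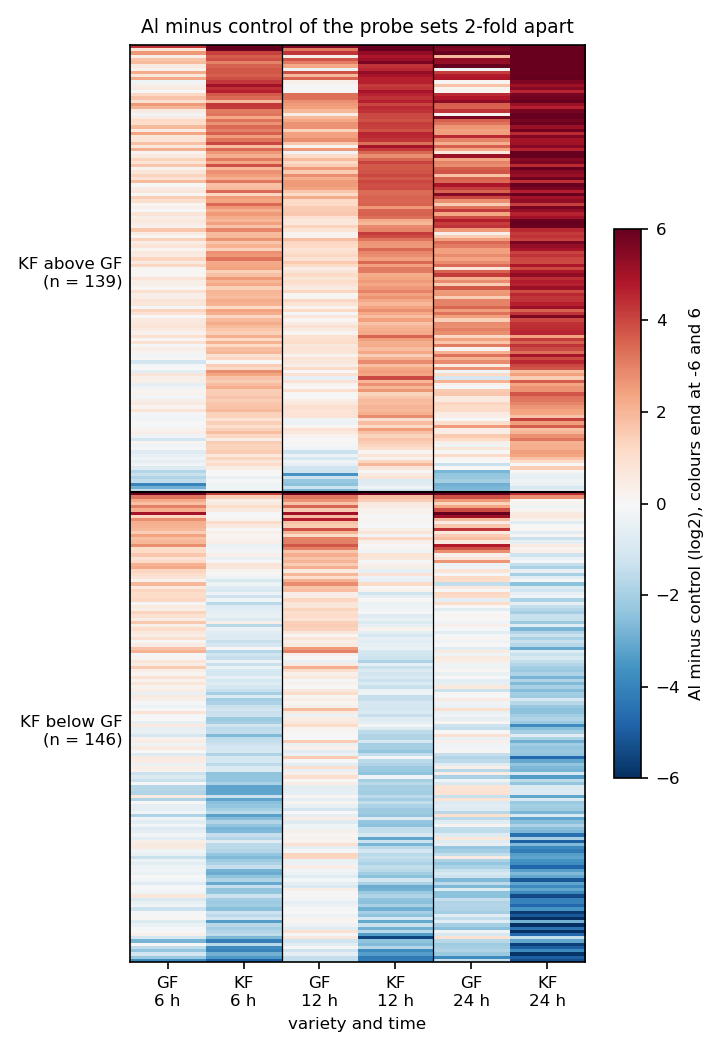
Al minus control difference (log2, colour) of the same 285 probe sets (rows), in the GF and KF pair of arrays at 6, 12 and 24 h (columns). Rows above the black line have the higher response in KF (139), those under it the lower (146). In the upper block KF is at least 2-fold above control in 124, 127 and 131 rows at the 3 times and GF in 26, 60 and 103.

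Of the 285 probe sets, 200 carry 1 gene, 56 of which are uncharacterized, 16 carry several genes and 69 none. The annotation gives 35 (12.3%) probes that match more than 1 gene, compared with 10.8% of all tested probe sets. In size, the smallest of the 3 differences was 1.001 for the last upward probe set inside the 2-fold limit and 1.006 for the last downward one, and 0.994 and 0.997 just outside. It reached 2 log2 units in 15 upward and 6 downward probe sets.

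Glutathione S-transferases and UDP-glycosyltransferases had the higher response in KF more often than the lower. Of 49 glutathione S-transferase probe sets, 3 were 2-fold apart with KF above at every time and 0 below, and 15 had KF above at every time (30.6%, against 14.5% of all tested) with 4 below (8.16%, against 17%). Their median difference was 0.12, against -0.03 over all tested probe sets. Beside GSTU24 these were GSTU47 (1.42, 1.47 and 2.15 in GF control, 2.64, 3.77 and 5.74 in GF Al, 2.05, 1.77 and 1.68 in KF control, 5.32, 5.60 and 7.40 in KF Al) and GSTU41, whose probes can bind several genes. At 12 and 24 h both were more than 2-fold above control in either variety, and KF exceeded GF in this response by 1.91 ± 0.27 and 1.97 ± 0.30 (adjusted p = 0.168 and 0.189, neither passing). Among 151 UDP-glycosyltransferase probe sets, enzymes that attach sugars to small molecules, 46 had KF above at every time (30.5%) and 13 below, and 5 against 0 were 2-fold apart. Of these 5, 3 are annotated as abscisate beta-glucosyltransferase-like, named after an enzyme that inactivates the hormone abscisic acid by adding glucose. They are LOC100811700 (mean difference 1.77), LOC100778086 (1.76) and LOC100815146 (1.58), the last pair 21817 bases apart on chromosome 2. With the common floor, 0 of 12 glutathione S-transferase and 1 of 25 UDP-glycosyltransferase probe sets were 2-fold apart at every time. ABC transporters were nearly even, with 26 of 153 above at every time and 22 below (29 and 18 under cyclic loess normalization). Their only 2-fold member, the pleiotropic drug resistance protein LOC100793825, an ABC-type exporter, read 1.18, 1.66 and 4.77 in GF Al and 2.41, 3.72 and 6.45 in KF Al, from control levels between 1.22 and 1.44.

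Receptor-like kinases and resistance proteins differed from each other in their counts. Of 785 receptor-like kinase probe sets, 13 were 2-fold apart with KF above and 4 with KF below (1.66% and 0.51%, against 0.28% and 0.294% of all tested). Over the whole list the directions were even, with 145 above and 152 below at every time (18.5% and 19.4%) and a median difference of -0.01. Under cyclic loess normalization 153 were above and 126 below. With the common floor 194 were left, 10 above and 30 below at every time. Of these 194, 1 was 2-fold apart with KF above and 0 with KF below. Calcium signalling (43 above, 37 below), the MAP kinase cascade (9 and 11) and chitinases with PR proteins (15 and 16) were near even too. Under cyclic loess normalization the counts were 46 and 29, 13 and 8, and 14 and 12. A FERONIA-like pair on chromosome 13 pointed in opposite directions. LOC100804042 (6795586 to 6798639) stood 3.10, 3.51 and 5.44 above control in KF and 1.34, 1.92 and 2.35 in GF. LOC100799780 (6745440 to 6748049) stood 1.44, 1.79 and 2.72 above control in KF and 3.23, 3.16 and 3.87 in GF. These genes, 47537 bases apart, both had higher levels after Al in each variety, with mean differences of 2.15 ± 0.35 and -1.44 ± 0.27 that did not pass (adjusted p = 0.189 and 0.229). Of 173 probe sets for NBS-LRR and TIR resistance proteins, the intracellular immune receptors, 55 had KF above at every time (31.8%) and 22 below. LOC100305446 was an exception, at 2.65, 3.16 and 6.59 in GF Al and 1.08, 1.10 and 1.92 in KF Al, from control levels of 1.10 to 1.52 (mean difference -2.51 ± 0.55, adjusted p = 0.29).

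Transcription factor families differed in direction. KF was above at every time in 27 of 85 NAC probe sets (31.8%) with 6 below, and in 43 of 130 WRKY probe sets (33.1%) with 17 below. It was below in 36 of 160 bHLH probe sets (22.5%) with 12 above (7.5%), and zinc finger proteins were even, with 50 each of 302. Under cyclic loess normalization 28 bHLH probe sets were below and 16 above, and 39 zinc finger probe sets below and 58 above. All tested probe sets then had 7135 below and 8411 above. LOC100786383 (NAC domain-containing protein 69-like) read 2.60, 2.02 and 1.97 in KF control and 5.15, 4.36 and 6.41 in KF Al, against 4.18, 4.48 and 3.63 in GF control and 4.96, 5.21 and 5.74 in GF Al. The varieties differed in control roots and were under 2-fold apart after Al. LOC100813377, a HAT14-like homeobox-leucine zipper gene, read 1.46, 2.55 and 7.02 in GF Al and 2.79, 4.51 and 7.90 in KF Al, from controls between 1.10 and 1.56, so GF reached at 24 h a level above that of KF at 12 h. The pair of WRKY genes that were 2-fold apart downwards ran against their family. LOC100792193 (WRKY transcription factor 70-like) read 5.75, 5.82 and 4.86 in GF Al and 3.21, 2.47 and 2.12 in KF Al, from controls between 1.98 and 2.73 (mean difference -2.53 ± 0.30, adjusted p = 0.148). The WRKY transcription factor 72-like gene LOC100809801 had its largest difference at 12 h, at -6.16, where KF Al read 1.30 against 6.80 in its control.

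Among hormone lists, 2-fold members with KF above and below numbered 4 and 0 of 183 for abscisic acid, 2 and 0 of 78 for ethylene, 2 and 2 of 84 for gibberellin and 1 and 0 of 92 for jasmonate. Over all tested probe sets the shares were 0.28% above and 0.294% below. With the common floor the counts were 2 and 0 of 38 for abscisic acid, and 0 and 0 for ethylene, gibberellin and jasmonate. The abscisic acid members include LOC100811700, LOC100778086 and LOC100815146, which are counted among the UDP-glycosyltransferases too. LOC100796758, 12-oxophytodienoate reductase 3-like, an enzyme of jasmonate synthesis, read 2.26, 3.91 and 6.42 in GF Al and 4.73, 6.32 and 7.57 in KF Al, from controls between 1.59 and 2.08. KF stood higher at each time and the gap was smallest at 24 h (mean difference 2.12 ± 0.32, adjusted p = 0.182). LOC100789795, annotated as an ETHYLENE INSENSITIVE 3-like factor of the ethylene pathway, read 1.44, 1.15 and 1.67 in GF Al and 3.64, 4.76 and 7.26 in KF Al (mean difference 3.87 ± 0.53, adjusted p = 0.165). GA3OX3, a gibberellin 3-beta-dioxygenase that makes active gibberellin, read 8.28, 7.22 and 6.85 in KF control and 6.69, 4.81 and 1.81 in KF Al. In GF it read 7.75, 7.63 and 6.41 in control and 7.69, 7.26 and 5.76 after Al, so only KF was more than 2-fold below control (mean difference -2.65 ± 0.54, adjusted p = 0.254). The other gibberellin members were GASA35 (-1.47), with KF below, and with KF above GASA4, a snakin-2-like peptide gene (1.57), and LOC100799073, chitin-inducible gibberellin-responsive protein 1-like (1.66). None of 316 auxin and 70 cytokinin probe sets was 2-fold apart at every time.

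Of 36 protease inhibitor probe sets 12 had KF above at every time (33.3%) and 4 below (11.1%), and 2 were 2-fold apart, both with the varieties already apart in control roots. LOC100811209, trypsin inhibitor A-like, read 7.40, 7.21 and 7.51 in GF control, 6.85, 7.39 and 7.78 in GF Al, 3.83, 2.89 and 2.37 in KF control and 5.66, 5.64 and 4.74 in KF Al. KF was lower in every array and closer to GF after Al (mean difference 2.35 ± 0.28, adjusted p = 0.148). LOC100790688, miraculin-like, was 5.37, 6.17 and 6.18 in GF control and 1.41, 3.71 and 3.30 in GF Al, while all 6 KF arrays lay between 0.61 and 1.67. Its positive difference (2.66 ± 0.38, adjusted p = 0.168) goes with lower values in GF after Al. The KF arrays all lay under the 95th percentile of the background, where a fall could not be seen. Whether its probes match the KF sequence was not tested.

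Class III peroxidases had the lower response in KF more often than the higher. Of 136 probe sets, 8 were 2-fold apart with KF below at every time (5.88%, against 0.294% of all tested) and 0 with KF above, and 43 had KF below at every time (31.6%) with 12 above. None passed the test, and the median difference of the list was -0.10, against -0.03 over all probe sets. With the common floor 49 probe sets of the list were left, 14 below and 2 above at every time. Of these 49, 0 were 2-fold apart at every time. LOC100811277, peroxidase 21-like (GLYMA10G05800, chromosome 10, 4539334 to 4543073), read 7.35, 7.11 and 7.81 in GF control, 7.29, 7.45 and 6.98 in GF Al, 7.01, 6.48 and 6.29 in KF control and 4.62, 3.66 and 3.18 in KF Al. The 3 KF Al arrays were lower than the other 9, with a mean difference of -2.59 ± 0.31 (adjusted p = 0.148). The peroxidase 4-like pair RIP1 on chromosome 11 and LOC100816056 on chromosome 18 gave the same mean difference of -2.57, with Al minus control differences in KF of -2.65, -1.41 and -3.17 for RIP1 and -4.88, -4.13 and -5.31 for LOC100816056. In GF these were -1.32, 1.29 and 0.51 for RIP1 and -3.81, -1.45 and -1.36 for LOC100816056. LOC100805299, peroxidase 15-like, had the opposite form, at 2.26, 2.70 and 2.53 above control in GF and 0.35, 1.47 and 0.05 in KF.

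**Figure D4:**
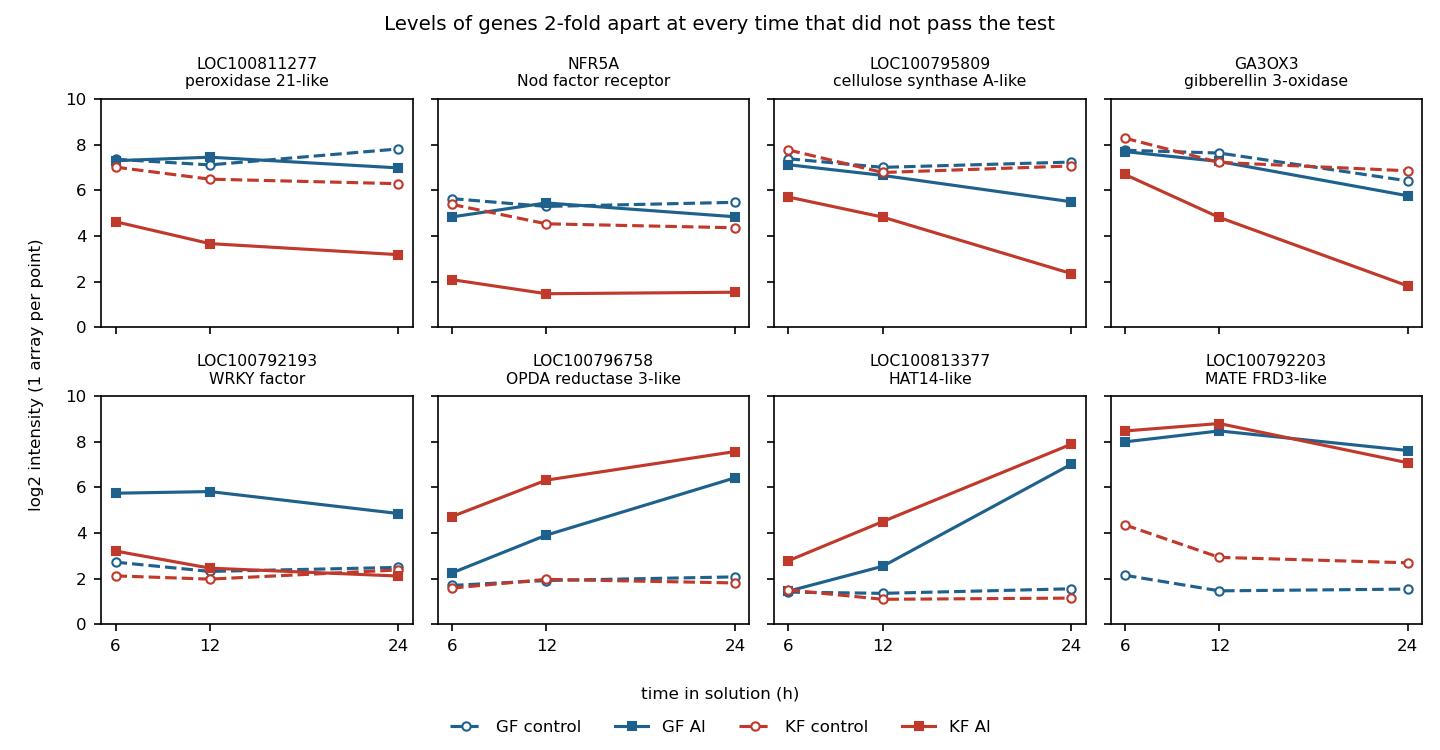
Levels of 8 genes that differed by at least 2-fold in response at every time without passing the test, as log2 intensity (vertical axis) at 6, 12 and 24 h (horizontal axis), 1 array per point, with lines and colours as in the plot of the called probe sets. KF Al is the lowest line at every time for LOC100811277, NFR5A, LOC100795809 and GA3OX3, GF Al stands alone for LOC100792193, GF Al trails KF Al for LOC100796758 and LOC100813377, and the controls are apart for LOC100792203.

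Several cell wall lists had the lower response in KF more often than the higher. KF was below at every time in 32 of 72 arabinogalactan, extensin and proline-rich protein probe sets (44.4%) and above in 4. It was below in 58 of 178 for cellulose and callose enzymes (32.6%) and above in 19, and below in 24 of 76 for other wall glycosidases (31.6%) and above in 12. Expansins did not share this, with 12 of 57 below and 13 above. LOC100795809, like the catalytic subunit 6 of cellulose synthase A, read 7.76, 6.78 and 7.06 in KF control and 5.70, 4.82 and 2.35 in KF Al, against 7.38, 7.002 and 7.23 in GF control and 7.12, 6.65 and 5.49 in GF Al (mean difference -2.13 ± 0.35, adjusted p = 0.189). Other members with 2-fold lower responses were LOC100781528, a xyloglucan endotransglucosylase that cuts and rejoins wall xyloglucan (-2.31), LOC100787734, alpha-L-arabinofuranosidase 1-like (-2.01), and LOC100777903, a proline-rich protein DC2.15-like gene (-2.27). The last read 7.40, 6.70 and 2.81 in KF Al, 8.53, 8.59 and 7.07 in GF Al and at least 8.54 in all controls. Tubulin and actin probe sets had KF below at every time in 47 of 118 (39.8%), yet none was 2-fold apart at every time.

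Water and nutrient transporters gave members mostly with KF below. Of 38 aquaporin probe sets 16 had KF below at every time (42.1%) and 3 were 2-fold apart (7.89%, against 0.294% of all tested). Among the 3 were the plasma membrane aquaporins PIP2-3 (-1.38, and 0.0054 with the common floor) and LOC100806988 (-1.69). All 5 sulfate, nitrate and peptide transport probe sets that were 2-fold apart (of 169, 2.96%) had KF below. They included the high affinity sulfate transporters LOC100784124 (-1.81) and LOC100806204 (-1.34), oligopeptide transporter LOC100792167 (-2.00) and ureide permease LOC100794172 (-2.02). With the common floor, 1 of 13 aquaporin and 0 of 39 sulfate, nitrate and peptide transport probe sets were 2-fold apart at every time. The phosphate genes split: PHO1-H9, of a family that exports phosphate, read 3.46, 5.41 and 5.75 in KF Al and 1.86, 1.83 and 3.02 in GF Al from controls between 1.39 and 1.75 (2.82 ± 0.37, adjusted p = 0.165), whereas the phosphate transporter PHT1-2 read 1.86, 1.38 and 1.62 in KF Al and 4.28, 5.35 and 5.29 in GF Al, with controls already apart.

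NFR5A, a receptor for the bacterial Nod factor that starts the nodule symbiosis, had the lower response in KF. It read 5.63, 5.29 and 5.47 in GF control, 4.83, 5.44 and 4.84 in GF Al, 5.38, 4.53 and 4.36 in KF control and 2.08, 1.47 and 1.53 in KF Al. The KF Al arrays alone were low (-2.63 ± 0.31, adjusted p = 0.148), and with the common floor the difference turned to 0.11. Of 181 cytochrome P450 probe sets 33 had KF above and 33 KF below at every time, with a median difference of 0.00. The 7 that were 2-fold apart (3.87%, against 0.294% of all tested) all had KF below, and all of these probes match more than 1 gene. All but the 87A3-like LOC100812089 are annotated as 71D8-like, and 2 of these hold equal values on every array. CYP76O2, a cytochrome P450 by its symbol that the text search left out of the list, was also 2-fold apart with KF below (-2.22).

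Homologues of Al tolerance genes, found by family name in the annotation, gave a single member. Of 61 probe sets for STOP1, ALS3, MATE and ALMT homologues, 1 was 2-fold apart at every time and none passed. That 1 had KF below (1.64%, against 0.294% of all tested). At every time 9 were above and 14 below, with a median difference of -0.08. The 2-fold member was LOC100792203, a MATE transporter like FRD3, a citrate exporter of Arabidopsis (GLYMA13G27300, chromosome 13, 30471532 to 30477485). It read 2.15, 1.47 and 1.55 in GF control and 4.36, 2.94 and 2.70 in KF control, but 7.996, 8.48 and 7.62 in GF Al and 8.47, 8.80 and 7.08 in KF Al. KF began higher and both varieties ended alike, which gave a difference of -1.52 ± 0.29 (adjusted p = 0.223). Under cyclic loess normalization, and with a pseudocount of 1, it no longer reached 2-fold at every time, and with the common floor the difference turned to 0.09. STOP1 itself lay between 8.05 and 8.48 in all controls, between 9.03 and 9.22 in GF Al and between 9.20 and 9.48 in KF Al.

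**Figure D5:**
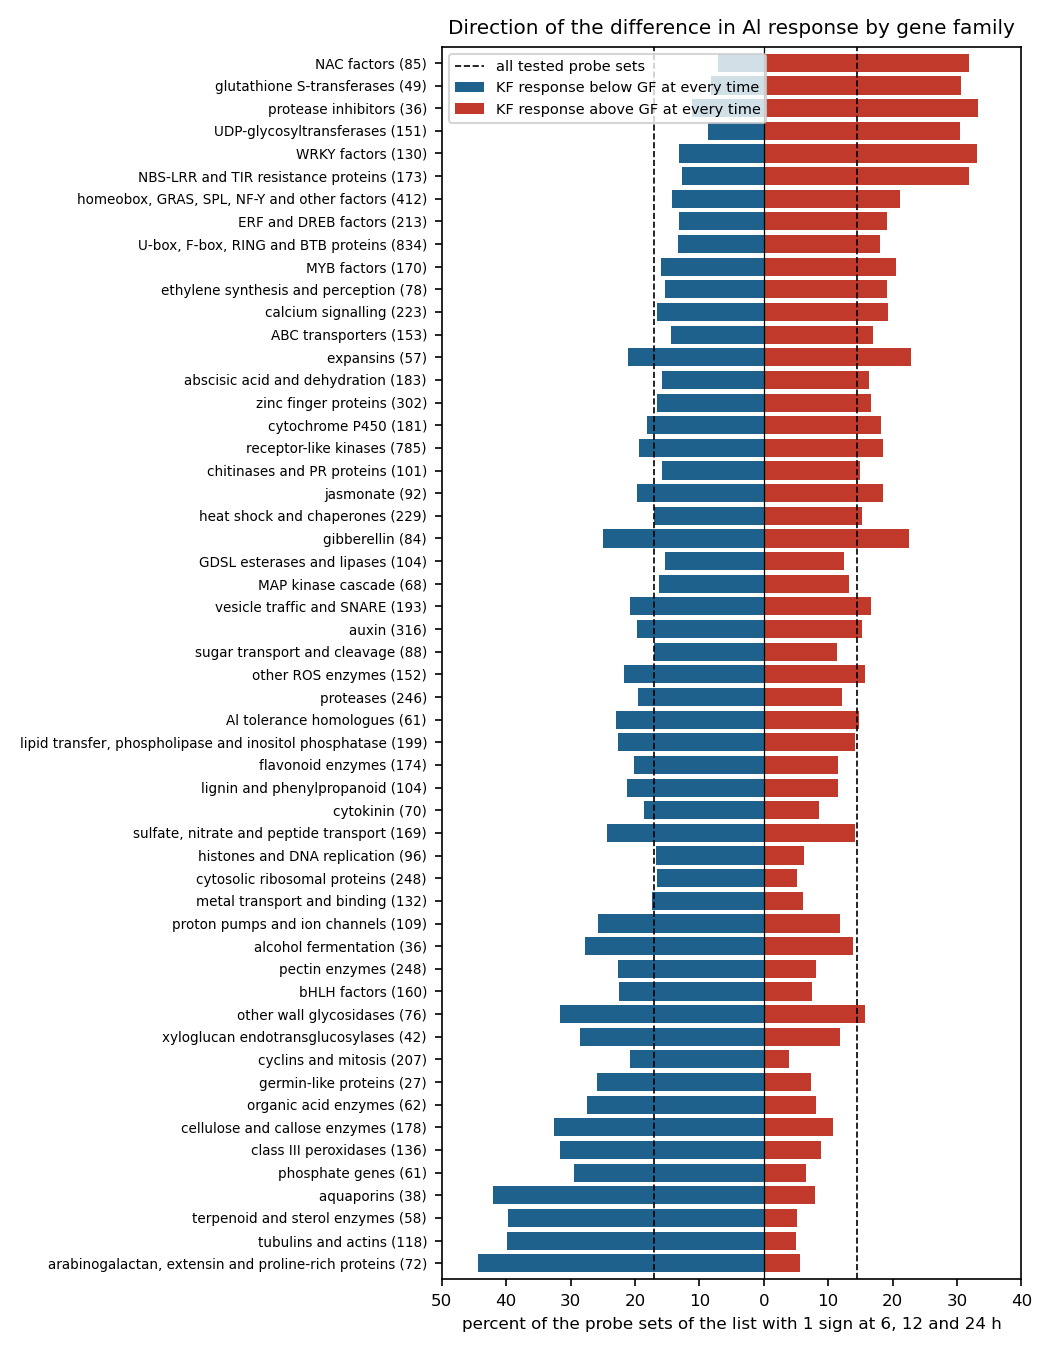
Share of the tested probe sets of each gene family list (percent, number in parentheses) whose KF response was below (blue, to the left) or above (red, to the right) the GF response at 6, 12 and 24 h. Dashed lines mark all tested probe sets (17% and 14.5%). NAC, WRKY, glutathione S-transferase and UDP-glycosyltransferase lists extend past the right line and short of the left, and wall protein, tubulin, aquaporin and peroxidase lists the reverse.

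Genes that came closer together after Al formed a small class in both directions. A gap between the controls is part of the difference that chose the members. The shares of all tested probe sets beside these counts are therefore given as description only. Of the 139, KF was at least 2-fold lower in the control at every time in 15 (0.278% of all tested probe sets). In 6 of the 15 the varieties were under 2-fold apart at every time after Al, against 85.8% of all tested. Of the 146, KF was higher in the control at every time in 15 (0.461% of all tested), with 11 under 2-fold apart after Al. Besides LOC100792203 the 11 include BOR2, a boron transporter (8.17, 7.10 and 7.45 in KF control, 7.70, 6.20 and 4.67 in KF Al, 6.52, 5.68 and 5.60 in GF control, 7.41, 6.30 and 5.58 in GF Al), and the chloride channel LOC100777170, for which KF control stood at 3.60, 2.69 and 2.92 and all other arrays between 1.26 and 1.83.

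By chromosome, the 283 members with a numbered chromosome made up between 0.304% of the tested probe sets (chromosome 4) and 0.829% (chromosome 13). There were 30 pairs of adjacent members within 100 kb, 23 with the same direction and 7 with opposite directions. Some of the 23 join cytochrome P450 71D8-like probe sets, whose probes match more than 1 gene. The same count over all tested probe sets was not made.

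The differences were not equal over time. At 6 h, 1129 probe sets (2.27%) were at least 2-fold above and 1609 (3.24%) below, at 12 h 1139 (2.29%) and 1589 (3.2%), and at 24 h 2640 (5.32%) and 4992 (10.1%). After cyclic loess normalization the 24 h counts were 3857 above and 3100 below. The standard deviation of the difference over all tested probe sets was 0.51, 0.52 and 0.78 at the 3 times. Across probe sets, which are not independent, the correlation of the difference was 0.23 between 6 and 12 h, 0.13 between 6 and 24 h and 0.30 between 12 and 24 h.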

How the data were processed

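The authors deposited intensity values, linear as read from their range and similar in median between arrays; how they were normalized is not given in the sources used here. Positions, probe numbers, gene text and domains are deposited annotation columns, per the file headers, on assembly V1.0. Another 24 deposited columns have names that fit none of the samples and stayed out. From 75990 probe sets the 66195 of the main category were taken, log2 was computed without a pseudocount, and those in the lowest 0.25 of mean log2 (below 1.12) were left out. Gene symbols were updated by identifier through a RefSeq table (27667 of 28744 tested probe sets with 1 gene matched).

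Models were fitted with limma 3.58.1 (lmFit, eBayes with trend) in R 4.3.3: 6 variety by time blocks, 3 time-specific Al effects and 1 variety by Al coefficient, with 2 residual degrees of freedom. The number of arrays limits the precision. With 3 times an exact sign-flip permutation test could not go below p = 0.25, so none was used. The fit was also run on simulated data, where the only condition set was that the mean size of added differences came back. Genes named were, among probe sets with 1 gene, those called, the 12 per direction whose smallest difference was largest, up to 3 members per list, the Al tolerance homologues, and the 6 per variety with the largest response where the other variety stayed under 2-fold; genes beyond these were chosen after their values were seen. Alternatives were cyclic loess, a pseudocount, background floors, other filters, other models and leaving out each time. Lists are text searches of the annotation and count probe sets. The members, lists and rules were chosen with earlier results of these data known.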

Additional observations from a re-analysis of the deposited data

Results flagged for a closer look

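The 8 probe sets below were flagged because the response to Al differed between the varieties by limma's interaction term. The mean differences of KF minus GF response were 4.66 for LOC100809397, 4.52 for GSTU24, 4.77 for LOC100782055, 4.08 for LOC100778424, 4.24 and 2.74 for the probe sets without a gene name on chromosomes 5 and 6 (11866315 and 11898234), -5.15 for SYP24 and -3.71 for LOC100779876, with adjusted p from 0.00368 to 0.042. Each had the same sign at 3 of 3 times. LOC100809397, GSTU24, LOC100782055 and the chromosome 5 probe set exceeded the 95th percentile of the background probe sets on the 3 KF Al arrays and on no other, SYP24 and LOC100779876 on the 3 GF Al arrays and on no other, and the chromosome 6 probe set on 0 arrays.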

How the results depend on the processing

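Of the 8 calls, 6 remained with cyclic loess normalization and 8 with no filter, with the brighter 0.5 of the probe sets alone or with robust moderation. The number called was 4 with a pseudocount of 1, 2 without time matching, 5 without the variety by time blocks (6 residual degrees of freedom), 2 without the trend, and from 2 to 167 when 1 time was left out (2 without 12 h, 6 without 6 h, 167 without 24 h). A floor at the background of each array gave 470 calls, 330 of them above, among 11708 probe sets; the floors differ between arrays. A common floor, chosen after seeing the data, gave 0 calls in limma among 10443 probe sets, with 667 at an unadjusted p below 0.05. The count 2-fold apart at every time was 102 with the floor of each array, 35 with the common floor and from 644 to 948 with 1 time left out, which asks for fewer times. The counts at single times were 497 at 6 h, 662 at 12 h and 5949 at 24 h with the floor of each array, and 384, 370 and 1357 at 6, 12 and 24 h with the common floor. The cause of these changes was not tested. The balance at 24 h turned round, from 2640 above and 4992 below to 5321 and 628 with the floor of each array and to 3857 and 3100 under loess, and the median over all probe sets went from -0.03 to 0.01 under loess. None of the 8 called changed sign, but of 95 members followed singly, none of those past the threshold, 20 turned with the floor of each array (among them NFR5A, LOC100792193, LOC100792203, LOC100806988, PIP2-3, PHT1-2 and LOC100784124) and 4 with the common floor, where their dim values are set equal. Under loess all 285 kept their sign, and 138 of 139 and 108 of 146 stayed 2-fold apart. The fit already matches Al with control within variety and time. No paired analysis was possible because, beyond that, no condition has a second replicate to pair by number.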

Other observations

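Lists not described above are given beside all tested probe sets, of which 17% had KF below and 14.5% KF above at every time. For cyclins and mitosis 43 of 207 were below (20.8%) and 8 above (3.86%). For cytosolic ribosomal proteins 41 of 248 were below (16.5%), near the share of all probe sets, and 13 above (5.24%), with 30 below and 26 above under cyclic loess normalization. Neither list had a member 2-fold apart at every time. Terpenoid and sterol enzymes had 23 of 58 below (39.7%) and 3 above, and 2 of those below were 2-fold apart.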
